A study of Lathyrus oleraceus subsp. biflorus and Lathyrus oleraceus and [Pisum sativum] subsp. abyssinicum with 117 samples.

Results

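Among 27737 transcribed loci that lie outside the gene annotation of the pea genome, 303 were read in the wild pea JI261 and were nearly silent in the other 5 lines sampled. These loci carry identifiers beginning with Ps_DOR2genes in the deposited tables, and the sources used here attach no position, sequence or function to them, so they are named by identifier alone. A locus was kept when its mean over the seed coat or over the embryo libraries of JI261 reached 0.5 CPM (the count of a locus scaled by the library total) and when all libraries of each other line together held at most 3 counts. The contrast of JI261 with the other lines therefore chose the loci, and its values are given as a description, without a test. Of the 303 loci, 90 reached the level in the seed coat alone, 139 in the embryo alone and 74 in both tissues.

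RNA was sequenced from glasshouse-grown, untreated plants, in seed coat and embryo at stages labelled D1 to D5. JI261, JI64 and JI1794 were wild peas (Pisum elatius), JI92 a landrace and Cameor a cultivar of domesticated pea (P. sativum), and PI358617 an Ethiopian pea (P. abyssinicum). JI261 had 14 libraries, 2 replicates each of seed coat at D1, D3, D4 and D5 and of embryo at D3, D4 and D5, with totals of 56.97 to 69.5 M counts (M, mega). The other lines had 92 libraries of the same set with 6336 M counts in all, and another 11 of seed coat, labelled 2017 and taken from JI64 and JI92, with 771.9 M counts, were not used to choose the loci. The labels do not say whether the replicates came from separate plants, so p-values measure the spread between these libraries, which may be technical.

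The seed coat is maternal tissue that develops from the integuments of the ovule and surrounds the embryo, and the embryo is the product of fertilization, so the genome of the mother plant is read in the former and that of the offspring in the latter. Plant lines of one species differ in which genes they carry and transcribe. Loci outside an annotation are regions where reads pile up although no gene model was drawn, and they can be coding, noncoding or fragments of longer transcripts. All reads were mapped to the Cameor genome, per the series' design text, so each locus stands for a stretch of that genome to which reads of JI261 were assigned. In whole-tissue RNA, fewer cells of a type and less RNA per cell cannot be told apart.

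At the level of 0.5 CPM, JI261 had 3047 loci outside the annotation, and the 303 made up 9.94% of them (exact 95% binomial interval 8.90% to 11.06%, counting error only). With each other line put in place of JI261, the rule kept 126 loci for JI64, which was 3.64% of its loci at the level. It kept 202 for JI1794 (6.41%), 167 for Cameor (5.13%), 247 for JI92 (7.51%) and 471 for PI358617 (13.45%). JI261 thus stood between PI358617 and JI92 in this order, and the highest of the 3 wild peas. The number of libraries per line, from 14 to 20, and the total, from 888.3 M counts in JI261 to 1411 M in Cameor, differed between lines, and their part in the order was not tested. Among annotated genes the rule kept 50 of the 19047 at the level in JI261, or 0.263%.

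The loci were at one end of a range. Of the 3047 loci of JI261, 1438 (47.2%) had more than 3 counts in all 5 other lines, 408 in 4, 303 in 3, 280 in 2 and 315 in 1 other line. The line that shared a locus of the last kind was PI358617 for 104 of the 315, JI64 for 61, JI1794 for 55, JI92 for 52 and Cameor for 43.

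Outside JI261, 42 of the 303 loci had any count in the 92 libraries, 35 of them 1 to 3 counts in total and 7 more than 3, with 12 as the highest sum over the 5 lines, and the rest were at 0 throughout. A count of 0 over all libraries of a line allows up to 3 counts, which is 0.00213 CPM in Cameor and 0.00257 CPM in JI92, the deepest and the shallowest of the other 5 in this sense. Summed over the 303 loci, the libraries of JI261 ran from 282.5 to 514.8 CPM, whereas the pooled libraries of each other line ran from 0.0148 CPM in JI1794 to 0.0247 CPM in PI358617. No library of those lines held more than 7 counts in the 303 loci. The gap between JI261 and the rest is what the rule asked for.

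**Figure D1:**
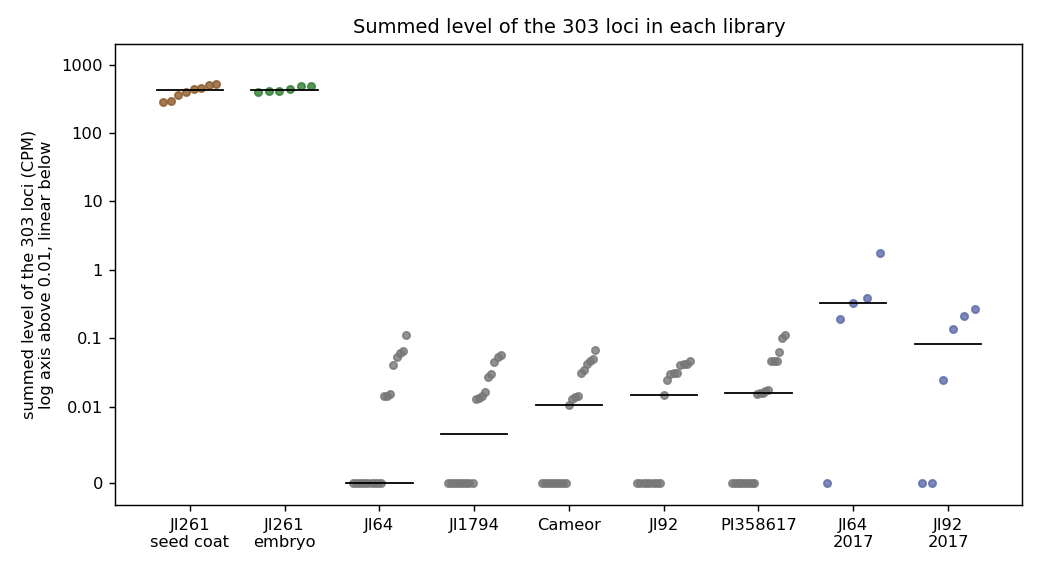
Summed CPM of the 303 loci (vertical axis, logarithmic above 0.01 and linear below) in each library, sorted by value within each column, with a bar at the median of the column. Seed coat and embryo libraries of JI261 lie between 282.5 and 514.8 CPM, the 92 libraries of the 5 other lines hold at most 7 counts each, and the libraries labelled 2017, which did not enter the choice, reach 1.75 CPM.

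Near the threshold the choice was a matter of hundredths of a CPM. Ps_DOR2genes.29836 and Ps_DOR2genes.28715 were just inside, both with a highest tissue mean of 0.504 CPM, and Ps_DOR2genes.22051 and Ps_DOR2genes.12306 were just outside with 0.499 and 0.498 CPM. At the other limit, 18 of the 303 loci had exactly 3 counts in one of the other lines, and 22 further loci at the level missed the list because their highest count in a line was 4. With the level set to 0.25 CPM the list grew to 485 loci and with 1 CPM it shrank to 172. Replicates gave a view of the level that the choice did not share, while the limit in the other lines was the same for both. Choosing on replicate 1 libraries of JI261 kept 302 loci, of which 278 (92.05%) were also at the level in the replicate 2 libraries, and choosing on replicate 2 kept 324, of which 278 (85.8%) were at the level in replicate 1. Such shares were not taken for other loci. Across the 303 loci the 2 replicates of a group had a Pearson correlation between 0.860, in the seed coat at D3, and 0.954, in the embryo at D5, which describes loci of the same libraries.

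Tissue labels were checked with 300 annotated genes enriched in the seed coat and 300 enriched in the embryo of PI358617. The seed coat list took 13.7% to 29.5% of the counts of JI261 seed coats and 0.0926% to 0.296% of those of its embryos. The embryo list took 29.2% to 59.6% of embryo counts and 0.629% to 0.7995% of seed coat counts at D1 and D3, but 5.59% to 6.33% at D4 and 7.57% to 7.78% at D5. So the labelled tissues were told apart in every JI261 library, and seed coats of D4 and D5 held more reads of embryo-list genes. The 139 loci that reached the level in the embryo alone were under it in the seed coat by the rule. In seed coats they summed to 13.3 and 14.9 CPM at D1, 8.88 and 5.04 at D3, 8.80 and 9.12 at D4, and 10.3 and 13.8 at D5, against 210.8 to 262.3 CPM in embryos. These sums were higher in D5 than in D3 seed coats without overlap, while those of D1 and D5 overlapped, and the part of embryo RNA in the values from seed coats was not tested.

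Levels were mostly low, with a few high exceptions. The 164 loci at the level in the seed coat had means from 0.504 to 41.1 CPM with a median of 1.15, and 6 of them reached 10 CPM. The 213 loci at the level in the embryo had means from 0.504 to 37.7 CPM with a median of 1.02, and 5 reached 10 CPM. The 10 highest loci held 33.5% of the summed CPM of the 303 loci in seed coats and 31.6% in embryos. By comparison, the other loci outside the annotation that were at the level in JI261 had a median of 1.78 CPM in the seed coat and 1.46 CPM in the embryo.

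Many of the loci were close to a single tissue. Of the 90 at the level in the seed coat alone, 20 had 0 counts in all 6 embryo libraries, and the median over the 90 of the embryo mean was 0.120 CPM. Of the 139 at the level in the embryo alone, 35 had 0 counts in all 8 seed coat libraries, and the median over the 139 of the seed coat mean was 0.0274 CPM. Counts in all 14 libraries were found for 82 of the 303 loci. No counts of these kinds were made for other loci. At the level in both tissues were 74 of the 303 loci, and 1157 of the 2744 other loci outside the annotation at the level in JI261. These splits are a description, since a locus that passed through one tissue alone was low in the other by construction.

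**Figure D2:**
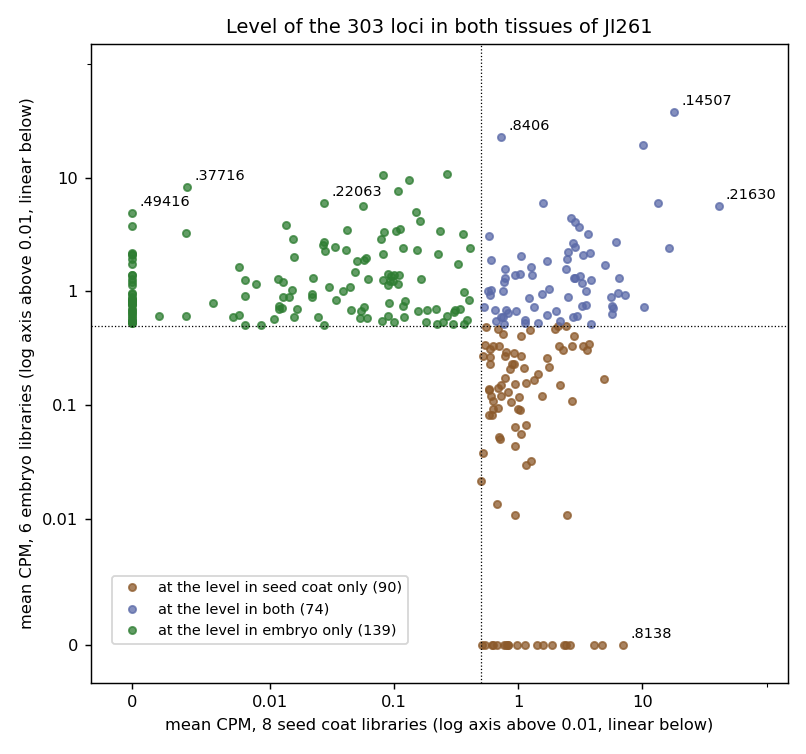
Mean CPM over 6 embryo libraries (vertical) against mean CPM over 8 seed coat libraries (horizontal) of JI261 for each of the 303 loci, on axes that are logarithmic above 0.01 and linear below, with dotted lines at the level of 0.5 CPM. The 74 loci at the level in both tissues fill the upper right, and loci on the axes at 0, such as Ps_DOR2genes.8138 and Ps_DOR2genes.49416, had no count in the other tissue.

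The 10 highest loci of the seed coat were Ps_DOR2genes.21630, Ps_DOR2genes.14507, Ps_DOR2genes.54156, Ps_DOR2genes.45709, Ps_DOR2genes.20698, Ps_DOR2genes.60291, Ps_DOR2genes.14481, Ps_DOR2genes.8138, Ps_DOR2genes.54157 and Ps_DOR2genes.4652, with means from 41.1 down to 6.30 CPM. Per length, the order was different, and Ps_DOR2genes.20698 led with a mean of 26.6 FPKM (fragments scaled by length and by the library), before Ps_DOR2genes.21630 with 22.0 and Ps_DOR2genes.54156 with 19.5 FPKM. Of these 10, 9 were also at the level in the embryo, and Ps_DOR2genes.8138 was the exception.

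Ps_DOR2genes.21630, the highest seed coat locus, had 62.6 and 65.0 CPM at D1, 29.0 and 36.6 at D3, 25.2 and 38.1 at D4, and 35.9 and 36.0 at D5, against 4.69 to 7.10 CPM over the 6 embryo libraries. Every seed coat library lay above every embryo library, and the 2 libraries of D1 lay above the other seed coats. The test of JI261 counts was edgeR's quasi-likelihood F test with one mean per tissue and stage, Benjamini-Hochberg adjustment over 28520 features and a threshold of 0.05. It compares libraries after TMM scaling, with factors here from 0.621, in an embryo library of D5, to 1.45, in a seed coat library of D1, so a fitted change can be smaller or larger than the ratio of CPM values. For Ps_DOR2genes.21630 the seed coat was higher than the embryo over D3 to D5 by a log2 fold change of 2.08 (SE 0.11, adjusted p = 1.09e-08 by edgeR), and the seed coat stages differed (adjusted p = 0.0094 by edgeR), with D5 lower than D1 by a log2 fold change of -0.61 (SE 0.18, adjusted p = 0.0171 by edgeR), a call lost without either library of D1 or of D5.

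Ps_DOR2genes.8138 was read in seed coats alone and faded over their stages. It was read at 22.7 and 21.2 CPM at D1, 5.97 and 5.73 at D3, 0.158 and 0.315 at D4 and 0 in both libraries of D5, and it was at 0 in all 6 embryo libraries. Libraries of D1, D3 and D4 did not overlap, and D1 was at least 934-fold above the limit that 0 counts at D5 allow (adjusted p = 1.22e-05 by edgeR). The edgeR test of tissue could not be fitted for this locus, because both tissues are at 0 at D5, whereas DESeq2 and limma called it.

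Ps_DOR2genes.54156 followed the opposite course. Its seed coat libraries held 3.44 and 2.72 CPM at D1, 3.45 and 5.04 at D3, 17.01 and 19.96 at D4, and 39.3 and 40.8 at D5, and its embryo libraries 0.692 and 0.823 CPM at D3, 2.07 and 3.25 at D4 and 3.50 and 4.04 at D5. The libraries of D5 lay above those of D3 in both tissues, without overlap. The rise from D1 to D5 in the seed coat was 3.91 on the log2 scale (SE 0.29, adjusted p = 8.88e-07 by edgeR), and from D3 to D5 in the embryo 3.14 (SE 0.30, adjusted p = 5.78e-06 by edgeR). Ps_DOR2genes.54157, the locus of the next number, rose beside it from 2.74 and 3.02 CPM at D1 to 15.8 and 15.6 CPM at D5 in the seed coat, by a log2 fold change of 2.67 (SE 0.29, adjusted p = 1.96e-05 by edgeR).

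Ps_DOR2genes.45709 was lowest at D3 in the seed coat. Its seed coat libraries held 23.7 and 21.9 CPM at D1, 4.33 and 5.54 at D3, 15.0 and 14.2 at D4 and 10.2 and 11.1 at D5, and its embryo libraries 4.33 and 3.46 CPM at D3, 3.53 and 2.97 at D4 and 10.4 and 11.1 at D5. The fall from D1 to D3 (log2 fold change -1.53, SE 0.21, adjusted p = 0.000274 by edgeR) and the rise from D3 to D5 in the embryo (2.30, SE 0.21, adjusted p = 4.32e-06 by edgeR) were both past the threshold. In the seed coat the step from D3 to D5 also passed (0.65, SE 0.20, adjusted p = 0.0281 by edgeR), but this call was lost with RLE scaling, with each tissue fitted alone and without replicate 1 of D3 or replicate 2 of D5. Its difference between tissues was small (log2 fold change 0.33, adjusted p = 0.0277 by edgeR) and was lost with RLE scaling, with DESeq2 and without any 1 of 6 libraries.

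Ps_DOR2genes.4652 had 12.4 and 12.9 CPM at D1, 8.47 and 10.7 at D3, 1.77 and 1.94 at D4 and 0.968 and 1.21 at D5 in the seed coat. In the embryo it fell as well, from 2.66 and 2.37 CPM at D3 to 0.229 and 0 at D5. Both falls from D3 to D5 passed the threshold, with log2 fold changes of -3.60 (SE 0.70, adjusted p = 0.0018 by edgeR) in the seed coat and -3.65 (SE 0.79, adjusted p = 0.00282 by edgeR) in the embryo. Ps_DOR2genes.14481 was at 4.46 to 12.9 CPM over the 8 seed coat libraries and 0.737 to 1.37 CPM over the 6 embryo libraries. Its tissue difference was a log2 fold change of 2.51 (SE 0.20, adjusted p = 3.98e-07 by edgeR), and its call over seed coat stages (adjusted p = 0.0297 by edgeR) was lost without replicate 2 of D1, of D4 or of D5.

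Ps_DOR2genes.20698 had replicates that stood apart. It was at 4.78 and 4.03 CPM at D1 and 21.9 and 20.4 at D5 in the seed coat, but at 15.1 in replicate 1 and 0.4996 in replicate 2 at D3, and at 14.8 in replicate 1 and 0.564 in replicate 2 at D4. In the embryo it was at 3.09 and 0.145 CPM at D3, 0.0351 and 1.11 at D4 and 0 in both libraries of D5. Replicate 1 was the higher of the pair in 3 of these 4 groups and replicate 2 in the embryo at D4, and no stage comparison of the locus passed the threshold (seed coat stages, adjusted p = 0.618 by edgeR). Among the 303 loci, 11 (3.63%) had a pair of replicates that differed at least 10-fold with 50 or more counts in the higher, against 8.89% of 2744 other loci outside the annotation and 3.43% of annotated genes at the level.

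The 10 highest loci of the embryo were Ps_DOR2genes.14507, Ps_DOR2genes.8406, Ps_DOR2genes.60291, Ps_DOR2genes.57718, Ps_DOR2genes.37714, Ps_DOR2genes.22060, Ps_DOR2genes.37716, Ps_DOR2genes.57787, Ps_DOR2genes.45709 and Ps_DOR2genes.22063, with means from 37.7 down to 5.95 CPM. Per length, Ps_DOR2genes.60291 led with 28.3 FPKM, before Ps_DOR2genes.57787 with 22.6 and Ps_DOR2genes.14507 with 19.7 FPKM. Of the 10, 6 were below the level in the seed coat.

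Ps_DOR2genes.14507 was high in both tissues and moved in opposite directions. Its seed coat libraries held 28.7 and 25.6 CPM at D1, 19.4 and 21.8 at D3, 10.1 and 12.1 at D4 and 13.9 and 12.02 at D5, and its embryo libraries 22.4 and 29.6 CPM at D3, 38.3 and 43.4 at D4 and 45.7 and 46.7 at D5. Seed coats of D5 lay below those of D3, and embryos of D5 above those of D3. The change from D3 to D5 was -1.13 in the seed coat (SE 0.16, adjusted p = 0.000193 by edgeR) and 1.66 in the embryo (SE 0.16, adjusted p = 6.12e-06 by edgeR) on the log2 scale, and the difference between these changes was -2.79 (SE 0.23, adjusted p = 3.52e-06 by edgeR). Ps_DOR2genes.60291 rose in both tissues over the same interval, from 5.06 and 4.60 to 14.3 and 14.7 CPM in seed coats (log2 change 1.13, SE 0.23, adjusted p = 0.00218 by edgeR) and from 15.2 and 13.7 to 26.0 and 27.3 CPM in embryos (1.72 on the log2 scale, SE 0.22, adjusted p = 7.23e-05 by edgeR).

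Ps_DOR2genes.8406 was mainly read in the embryo, at 15.0 and 11.7 CPM at D3, 18.4 and 18.8 at D4 and 37.0 and 35.3 at D5, against 0 to 1.30 CPM in the seed coat. Every embryo library was above every seed coat library, by a log2 fold change of 5.43 (SE 0.53, seed coat minus embryo -5.43, adjusted p = 2.88e-06 by edgeR). Its D5 embryos were above its D3 embryos (log2 fold change 2.27, SE 0.76, adjusted p = 0.0335 by edgeR), but this call was lost with DESeq2 and without any 1 of 8 libraries, and the test over all 3 embryo stages missed the threshold (adjusted p = 0.0787 by edgeR).

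Ps_DOR2genes.37716 was nearly confined to the embryo among these 14 libraries. It had 6.49 and 5.36 CPM at D3, 8.97 and 7.995 at D4 and 11.2 and 9.85 at D5 in the embryo, and a single seed coat library, replicate 1 of D5, with 0.0317 CPM. Its call over embryo stages (adjusted p = 0.0185 by edgeR) was lost when any of the 6 embryo libraries was left out. Ps_DOR2genes.37714, 2 numbers earlier, had 7.88 to 12.2 CPM over the 6 embryo libraries and at most 0.234 CPM in seed coats. Ps_DOR2genes.57718 had 8.23 to 13.8 CPM in embryos and at most 0.531 CPM in seed coats, Ps_DOR2genes.22060 5.00 to 14.3 CPM and at most 0.311 CPM, and Ps_DOR2genes.57787 5.94 to 8.84 CPM and at most 0.426 CPM. For none of these 4 did the test over embryo stages pass the threshold (adjusted p from 0.0767 for Ps_DOR2genes.22060 to 0.537 for Ps_DOR2genes.57718 by edgeR), although each of the 4 was called when the embryo was fitted alone. From D3 to D5, Ps_DOR2genes.22060 (log2 fold change 2.095, SE 0.68) and Ps_DOR2genes.57787 (1.298, SE 0.43) did pass (adjusted p = 0.0308 and 0.0379 by edgeR). Both calls were lost with limma on log2(FPKM + 0.1) and without any 1 of the 6 embryo libraries.

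**Figure D3:**
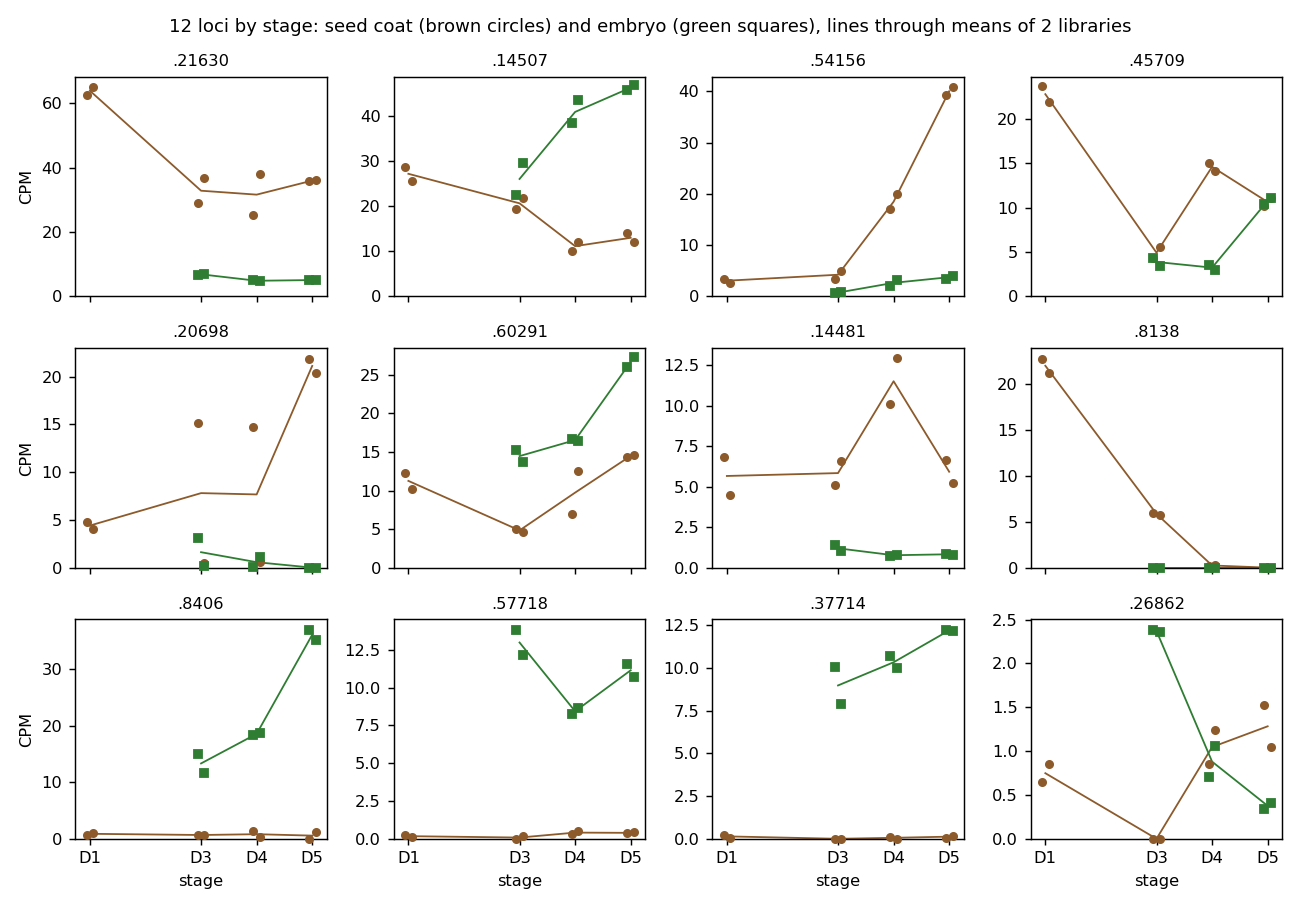
CPM (vertical, linear from 0, a scale for each panel) by stage (horizontal) for 12 loci in JI261, brown circles for the 2 seed coat libraries and green squares for the 2 embryo libraries of a stage, with lines through their means. Ps_DOR2genes.8138 falls from 22.7 and 21.2 CPM to 0, Ps_DOR2genes.54156 rises to 39.3 and 40.8 CPM, and the replicates of Ps_DOR2genes.20698 stand apart at D3 and D4 in the seed coat.

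Of the 303 loci, all of which passed the filter on low counts, 232 differed between tissues over D3 to D5 in the edgeR test, with 82 of them higher in seed coats and 150 in embryos. Among all features tested 67.4% differed (31.4% with seed coats higher and 36% with embryos higher). The rule fixes part of that count, because a locus that passed through one tissue alone had to be low in the other. For the 74 loci at the level in both tissues, 24 were higher in seed coats, 22 were higher in embryos and 28 were not past the threshold. That is 62.2% past the threshold, against 77.4% of all features at the level in both tissues, and the median log2 fold change was 0.11. The sign of that median was not stable, at -0.0047 with RLE scaling, -0.21 without replicate 1 of the D3 seed coat and -0.052 without replicate 1 of the D5 embryo. Limma on log2(FPKM + 1) called 38 higher in seed coats and 17 in embryos. Of all 16458 features at the level in both tissues it called 8398 higher in seed coats and 4978 in embryos.

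Largest differences between tissues were found at loci that one tissue did not read. Ps_DOR2genes.39403 was at 0 and 0.524 CPM at D1, 3.05 and 2.60 at D3, 9.69 and 12.5 at D4 and 5.03 and 4.62 at D5 in the seed coat, and at 0 in every embryo library. Over D3 to D5 the seed coat was at least 761-fold above the limit that 0 counts in the embryo allow (adjusted p = 6.25e-05 by edgeR). Ps_DOR2genes.18379 was at least 372-fold and Ps_DOR2genes.51149 at least 158-fold above the same limit (adjusted p = 7.35e-06 and 5.02e-05 by edgeR), with 0.687 to 6.81 and 0.311 to 3.33 CPM over the 8 seed coat libraries. In the other direction, Ps_DOR2genes.49416 was at 4.99 and 5.15 CPM at D3, 4.67 and 4.69 at D4 and 5.38 and 4.49 at D5 in the embryo and at 0 in all 8 seed coat libraries. Over D3 to D5 it was at least 636-fold higher in the embryo (adjusted p = 2.57e-07 by edgeR). Ps_DOR2genes.22063, with 3.20 to 9.36 CPM in embryos and 0.219 CPM in a single seed coat library of D1, was at least 779-fold higher over D3 to D5 (adjusted p = 3.98e-06 by edgeR). The levels of Ps_DOR2genes.37716 differed 1620-fold (exact 95% interval 448.2 to 13386, counting error only), a ratio that rests on 2 counts in the seed coat.

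**Figure D4:**
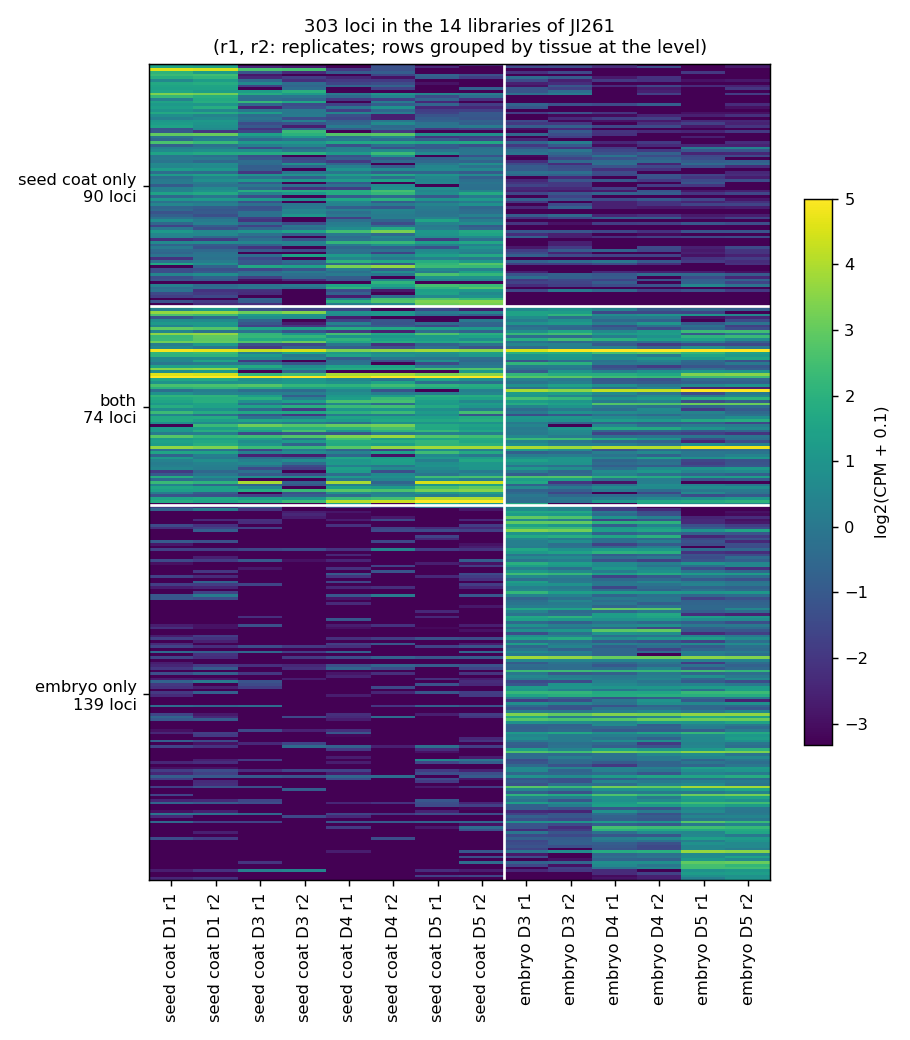
log2(CPM + 0.1) (colour) of the 303 loci (rows, grouped by the tissue in which they reached the level and then ordered by where in the stages their counts lie) in the 14 libraries of JI261 (columns). The 90 seed coat loci and the 139 embryo loci are mostly dark in the opposite tissue, and of the 74 shared loci 58 had counts in all 14 libraries and 5 were at 0 in both libraries of a tissue and stage.

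Within the seed coat, 48 of the 164 loci at the level there changed between stages by edgeR. The share of 29.3% was below the 50.2% of all features tested, the 64.53% of all features at the level in the seed coat and the 45.1% of other loci outside the annotation at that level. Calls were rarer among weakly read loci, at 17.14% of the 70 loci with a mean under 1 CPM, against 27.7% of all features and 20.2% of other loci outside the annotation in that range. Among loci with a mean of at least 2 CPM, 49.2% of 59 loci changed, against 73% of all features and 66.6% of other loci outside the annotation. Without replicate 2 of D1 the count was 34, and without replicate 1 of D3 it was 63. Counting over the loci at the level in the tissue tested was chosen after the data were seen. Over all 303 loci, 71 changed between seed coat stages, 25 from D1 to D3, 52 from D3 to D5 and 49 from D1 to D5. The fit gave no standard error for 62 of the 303 from D1 to D3 and for 59 from D3 to D5.

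The highest stage depended on the scale. By CPM, 71 of the 164 loci were highest at D1, 9 at D3, 36 at D4 and 48 at D5, and other loci outside the annotation were split alike (44.6% at D1 and 9.08% at D3, against 43.3% and 5.49%). With TMM scaling the counts were 50, 33, 29 and 52. Summed over the 303 loci, seed coats held 506.4 and 514.8 CPM at D1, 293 and 282.5 at D3, 362.5 and 401.8 at D4 and 440.8 and 447.3 at D5, which became 355 and 355.1, 320.8 and 318.8, 293.3 and 310.9, and 347 and 370.7 after TMM scaling. The sum was thus lowest at D3 by CPM but not after TMM scaling, where both libraries of D4 lay below both of D3. Few loci were bound to a stage: 8 of the 164 (4.88%) had over 80% of their summed stage means in 1 stage, 5 of them at D1, against 10.1% of other loci outside the annotation.

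From D1 to D3, 14 of the 164 loci changed, 5 higher and 9 lower at D3, or 8.54%, against 26.6% of all features tested (11.7% higher and 14.9% lower) and 35.2% of those at the level in the seed coat. Without replicate 1 of D1 the count was 6 and without replicate 1 of D3 it was 27, DESeq2 called 27, and limma on log2(FPKM + 1) called 80. DESeq2 thus called 16.5% of the loci and limma 48.8%, against 41.8% and 62.7% of all features at the level. Ps_DOR2genes.26862 had 0.644 and 0.852 CPM at D1 and 0 in both libraries of D3, at least 32.9-fold lower (adjusted p = 0.000514 by edgeR), and then 0.849 and 1.24 CPM at D4 and 1.52 and 1.04 at D5. Ps_DOR2genes.23084 went the same way, from 0.556 and 0.787 CPM to 0 and back to 1.62 and 1.07 CPM at D5, at least 29.4-fold lower at D3 than at D1 (adjusted p = 0.00924 by edgeR). Both were at 0 at D3 alone among the 4 seed coat stages. The other named changes of this step were less stable. Ps_DOR2genes.39403 rose (adjusted p = 0.0399 by edgeR), a call lost without any 1 of the 6 libraries of D3, D4 and D5. The rises of Ps_DOR2genes.8261, a locus at the level in the embryo alone, from 0.0585 and 0.131 to 1.10 and 1.26 CPM (adjusted p = 0.026 by edgeR) and of Ps_DOR2genes.48357 from 0.483 and 0.311 to 0.756 and 1.93 CPM (adjusted p = 0.0461 by edgeR) were lost without either library of D1, among others, and with the seed coat fitted alone. The second was also lost with no filter on low counts and with the replicate number as a block. The fall of Ps_DOR2genes.21132, also an embryo locus, from 0.380 and 1.03 CPM to 0 (adjusted p = 0.0251 by edgeR) was lost without replicate 2 of D1 or either library of D3.

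From D3 to D5, 40 of the 164 loci changed, 22 higher and 18 lower, or 24.4%, against 36.6% of all features tested (19.4% higher and 17.18% lower) and 48.5% of those at the level. The split was 21 higher and 21 lower with RLE scaling, and 58 higher and 27 lower by limma on log2(FPKM + 1). Of all 19759 features at the level, limma called 8701 higher and 3553 lower. Ps_DOR2genes.28930 was at 0 in both libraries of D3 and at 1.40 and 1.79 CPM at D5, at least 70.6-fold higher (adjusted p = 0.0142 by edgeR), and it had no count in the embryo. Ps_DOR2genes.23084 and Ps_DOR2genes.26862 were at least 59.5-fold and 56.7-fold higher at D5 (adjusted p = 0.00308 and 0.000119 by edgeR). Among loci that fell, Ps_DOR2genes.8138 was at least 248-fold lower (adjusted p = 3.1e-05 by edgeR). Ps_DOR2genes.20535 had 2.94 and 2.39 CPM at D1, 2.36 and 3.81 at D3 and 0 in all 4 libraries of D4 and D5, at least 132-fold lower at D5 than at D3 (adjusted p = 0.00152 by edgeR). Ps_DOR2genes.632 passed as well (adjusted p = 0.0199 by edgeR), but its D3 level was 0.231 CPM in replicate 1 and 4.89 in replicate 2, and the call was lost without the latter.

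Over the whole course from D1 to D5, 36 of the 164 loci changed, 13 higher and 23 lower at D5, or 22%, against 41.4% of all features tested (19% higher and 22.5% lower) and 54.8% of those at the level. Without replicate 2 of D1 the count was 19. Ps_DOR2genes.56091 rose from 0 and 0.0983 CPM at D1 through 0.123 and 0 at D3 and 1.04 and 1.43 at D4 to 8.58 and 9.48 CPM at D5 (log2 fold change 7.71, SE 1.65, adjusted p = 0.00577 by edgeR). Ps_DOR2genes.21454 was at 0 at D1 and at 6.41 and 4.91 CPM at D5 (adjusted p = 0.0114 by edgeR), with 0.509 and 0 CPM at D3 and 1.14 and 5.57 at D4, and this call was lost with DESeq2 and without either library of D1. Neither locus had a count in the embryo. Ps_DOR2genes.9803 and Ps_DOR2genes.58602 fell from 4.17 and 2.38 CPM and from 2.79 and 2.80 CPM to 0, at least 141-fold and 119-fold (adjusted p = 0.00432 and 0.00105 by edgeR). Ps_DOR2genes.30509, an embryo locus of 4.66 to 5.67 CPM at D4 and D5, was at 0 at D1 and at 0.0476 and 0.669 CPM at D5 in the seed coat (adjusted p = 0.0239 by edgeR), and the call was lost without replicate 2 of D5 or either library of D1.

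The share of embryo-list genes in seed coats rose over the same stages, as given above. Of the 22 loci higher at D5 than at D3, 18 had a higher level in D5 seed coats than in D5 embryos, and 4 had no count in any embryo library. All 13 loci higher at D5 than at D1 had the higher D5 level in the seed coat, and 5 had no count in the embryo. Both sets were chosen for their level and their rise in the seed coat, so these counts are partly fixed by the choice. They were not made for other loci or for all features, so there is no share to set them against. The part of embryo RNA in the rises was not tested.

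**Figure D5:**
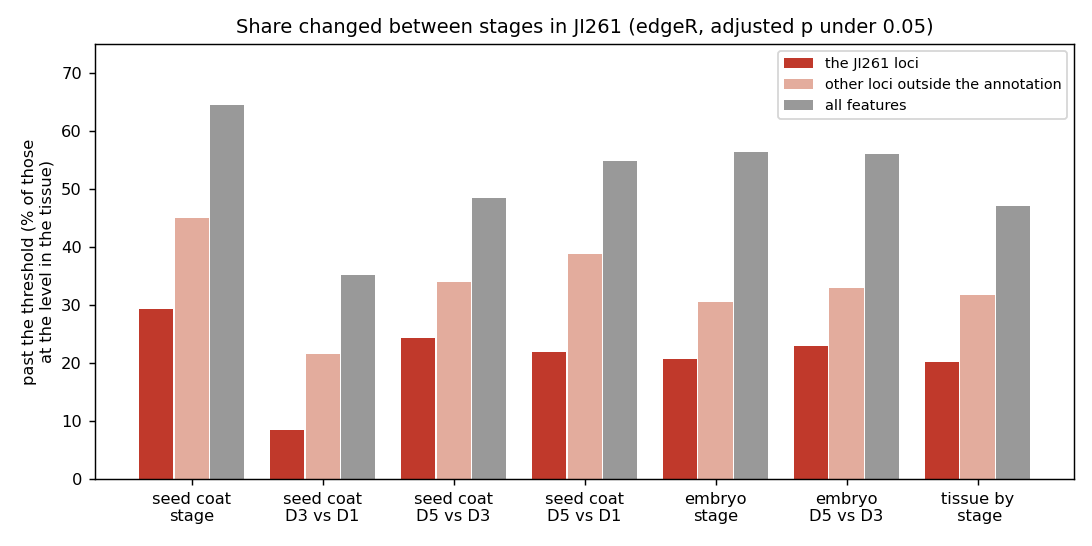
Percent of features past the threshold of the edgeR test (vertical) in 7 comparisons of stages within JI261 (horizontal), among the JI261 loci, other loci outside the annotation and all features, each at a mean of 0.5 CPM or more in the tissue tested (both tissues for tissue by stage). In this edgeR fit the JI261 loci had the lowest share in each comparison, for example 29.3% against 45.1% and 64.53% over the seed coat stages. By limma on log2(FPKM + 1) the first 2 sets were close, at 76.8% and 77.2%, against 86.8% of all features. Over the embryo stages limma gave 61.5% and 63.2%, against 74.2%.

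In the embryo, 44 of the 213 loci at the level changed between D3, D4 and D5 by edgeR. The share of 20.7% was below the 40.3% of all features tested, the 56.4% of all features at the level in the embryo and the 30.6% of other loci outside the annotation at that level. The seed coat libraries entered this estimate of the spread. With the embryo fitted alone, an alternative chosen after the data were seen, 116 loci changed (54.5%), against 74.8% of all features and 57.3% of other loci outside the annotation at the level. Without replicate 1 of D5 the count was 20. In the fit with both tissues, 14.4% of the 104 loci with a mean under 1 CPM changed. That compares with 24% of all features and 15.4% of other loci outside the annotation in that range. From 1 to 2 CPM it was 10.9% of 55 loci, against 32.3% and 18.9%. At 2 CPM or more it was 42.6% of 54 loci, against 65.8% and 51.9%. Over all 303 loci, 54 changed, and 61 from D3 to D5.

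Again the highest stage depended on the scale. By CPM, 93 of the 213 loci were highest at D3, 34 at D4 and 86 at D5, and with TMM scaling 45, 47 and 121. In percent the CPM counts were 43.66, 15.96 and 40.38, against 53.27, 14.85 and 31.88 of other loci outside the annotation at the level. The TMM counts were not made for other loci, and factors of 0.631 and 0.6206 at D5 raise every feature there. The summed level of the 303 loci was 435.8 and 412.3 CPM at D3, 397.7 and 413.2 at D4 and 484.8 and 483.1 at D5, and 392.1 and 368.8, 558.2 and 586.9, and 768.3 and 778.5 after TMM scaling. Libraries of D5 were highest on both scales without overlap, and those of D4 overlapped those of D3 by CPM but not after scaling. Embryo-list genes took 29.2% and 31.0% of the counts at D3 and 58.1% to 59.6% at D4 and D5, and their part in the scaling was not tested.

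From D3 to D5, 49 of the 213 embryo loci changed, 31 higher and 18 lower at D5, or 23%, against 40.6% of all features tested (17.8% higher and 22.8% lower) and 56% of those at the level. With the embryo fitted alone the split was 88 higher and 30 lower, and by limma on log2(FPKM + 1) it was 57 higher and 68 lower. Of all 18785 features at the level, limma called 3087 higher and 10303 lower. The median log2 fold change of the 213 loci was 0.75, against 0.26 for other loci outside the annotation and -0.10 for all features at the level. With RLE scaling these 3 medians were 0.93, 0.44 and 0.09, and by limma on log2(FPKM + 0.1) they were -0.11, -0.52 and -0.85, so the sign of the loci's own median was the other one by limma on FPKM, which changes the unit, the transform and the model together. Relative to the median of all features the loci were 0.84 higher by edgeR with TMM or RLE scaling, 0.74 higher by limma on log2(FPKM + 0.1) and 0.46 higher by limma on log2(FPKM + 1). Without replicate 1 of D5 the count of changed loci was 24.

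Ps_DOR2genes.11705 was at 0 at D3, 0.105 and 0.215 CPM at D4 and 2.31 and 2.45 CPM at D5, at least 98.5-fold higher than at D3 (adjusted p = 0.00266 by edgeR, a call that DESeq2 did not make), and had no count in the seed coat. Ps_DOR2genes.12319 and Ps_DOR2genes.30294 followed the same course, from 0 to 1.67 and 1.77 CPM and from 0 to 1.10 and 1.85 CPM, at least 71.2-fold and 61.4-fold higher (adjusted p = 0.0023 and 0.00266 by edgeR). Among embryo libraries these 3 loci were highest at D5. In seed coats Ps_DOR2genes.12319 was read only at D5, at 0.190 and 0.233 CPM (D5 against D1, adjusted p = 0.0135 by edgeR), and Ps_DOR2genes.30294 only at D1, at 0.0878 and 0.131 CPM (adjusted p = 0.0333 by edgeR). Both calls were lost with the seed coat fitted alone and without either library of D1, the second also without any 1 of 6 other libraries and with the replicate number as a block. Of those that went down, Ps_DOR2genes.36507 fell from 1.58 and 1.31 CPM to 0, Ps_DOR2genes.28404 from 1.56 and 1.23 CPM to 0 and Ps_DOR2genes.55949, at the level in the seed coat alone, from 0.676 and 0.420 CPM to 0 (adjusted p = 0.0264, 0.0191 and 0.00243 by edgeR). The first call was lost without any 1 of the 4 libraries of D3 and D5, and the second without replicate 1 of D3 or either library of D5.

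Changes from D3 to D5 differed between the tissues for 15 of the 74 loci at the level in both, 6 with the larger value in seed coats and 9 with the larger value in embryos. The share of 20.3% was below the 30.9% of all features tested (19% with the larger value in seed coats and 11.9% in embryos) and the 47.1% of those at the level in both tissues. With RLE scaling the split was 4 and 12, by limma on log2(FPKM + 1) 34 and 7, and without replicate 1 of the D3 embryo the count was 8. For all features at the level in both tissues the limma split was 10735 and 1531. Over all 303 loci, 33 were past the threshold by edgeR, and 79 had a standard error over 100, too large for a call. Ps_DOR2genes.26862 had the largest estimate among loci past the threshold whose D3 and D5 libraries did not overlap. It went from 0 in both libraries of D3 to 1.52 and 1.04 CPM at D5 in the seed coat and from 2.38 and 2.36 to 0.343 and 0.408 CPM in the embryo, so the 2 tissues crossed (adjusted p = 0.000126 by edgeR). Of the 74 loci, 6 rose in both tissues, 3 fell in both, 1 rose in seed coats and fell in embryos, and 2 fell in seed coats and rose in embryos, counting changes past the threshold in both tests. In percent these were 8.11, 4.05, 1.35 and 2.70 of the 74, against 12.86, 15.31, 5.43 and 3.26 of the 16458 features at the level in both tissues and 8.21, 11.15, 1.73 and 2.59 of the 1157 other loci outside the annotation there.

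The loci were shorter in the median than other features, though 91 of the 303 were of 1000 bases or more. The number of bases implied by the ratio of deposited counts to deposited FPKM had a median of 710 over the 303 loci, with quartiles of 451 and 1140 and a range of 245 to 2819, and 212 loci were under 1000 bases. Other loci outside the annotation at the level in JI261 had a median of 1314 bases and annotated genes of 2906 bases. The rule used counts, not length, but at an equal level per base a longer locus collects more counts, also in the other lines. The choice is therefore not independent of length, and its part in the shorter median was not tested. On the FPKM scale, a mean of at least 0.5 in place of 0.5 CPM would have kept 500 loci, 291 of them among the 303.

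A few of the loci were numbered in sequence. There were 15 pairs of consecutive numbers, holding 30 of the 303 loci, and no longer run. The correlation of log2(CPM + 0.1) over the 14 libraries had a median of 0.89 within these pairs, from 0.47 for Ps_DOR2genes.11526 and Ps_DOR2genes.11527 to 0.99 for Ps_DOR2genes.6210 and Ps_DOR2genes.6211, against a median of 0.06 over all pairs of the 303 loci. Pairs of consecutive numbers among the other loci at the level in JI261, 227 in all, had a median of 0.58. These correlations are descriptions over 14 libraries that share 2 tissues and 7 groups. In 12 of the 15 pairs both loci passed through the same tissue. Whether consecutive numbers mean neighbouring positions is not known from the labels or files, and overlapping or repeated loci could share reads.

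The 2017 libraries of JI64 and JI92 showed the loci in libraries that had no part in the choice. Of the 303 loci, 276 had 0 counts in all 11 libraries, 8 had 1 to 3 counts and 19 (6.27%) had more than 3, against 86.1% of the other 2744 loci at the level in JI261. Most of those loci had more than 3 counts in JI64 or JI92 in the libraries used by the rule. Of the 276 that had at most 3 counts in each of these lines there, 40 (14.5%) had more than 3 in 2017, as did 7.43% of the loci kept by the same rule for JI1794, 24.6% of those kept for Cameor and 7.01% of those kept for PI358617. Summed over the 303 loci, these libraries held 235 counts, or 0.305 CPM. Of these, 131 lay in a single library, replicate 1 of JI64 at D1, where 11 loci were read at 1.75 CPM in all, and the other 10 libraries held 0 to 24 counts. In that library Ps_DOR2genes.21630 had 32 counts and Ps_DOR2genes.15123 had 26, its only counts of 2017, while the 25 counts of Ps_DOR2genes.14507 lay in a JI64 library of D4, with 16, and a JI92 library of D4, with 9. The libraries used by the rule could hold at most 3 counts of a locus per line, so a higher count of 2017 is no fair comparison with them.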

How the data were processed

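The authors deposited a table of whole-number read counts and a table of FPKM values for 59594 features in 117 libraries. Reads were mapped to Cameor v1.0, per the series' design text, and HISAT2 2.1.0 and StringTie 2.1.0 are listed, without a role, in the submitters' processing notes. Not given in the sources used here are the counting of reads, its use of strand and the drawing of loci outside the annotation, so near-identical or overlapping loci may share reads. Every column was assigned to a sample by its label, and 10 rows that repeat an identifier were kept apart.

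CPM values are deposited counts divided by the column total. Counts of the 14 JI261 libraries were tested with edgeR 4.0.16 in R 4.3.3 (TMM, default low-count filter, robust quasi-likelihood F test, Benjamini-Hochberg adjustment over 28520 features, threshold 0.05), after the code was tested on simulated data. For features with all-zero groups, which make fitted folds unstable, folds are CPM ratios against 3 counts over the group. Intervals and limits cover counting error only. Alternatives were RLE, no filter, DESeq2 1.42.0, limma 3.58.1 on FPKM as log2(FPKM + 1) or as log2(FPKM + 0.1), the replicate number as a block, each tissue alone and leaving out each library; these last kept the same features. Named loci were the 10 highest of each tissue, up to 3 per direction and comparison with the largest fitted change past the threshold and libraries that do not overlap (for tissue by stage, D3 and D5 apart in 1 tissue or more), the 2 nearest each side of the level, and the 3 with most counts in 2017. Loci, lists and tests were chosen with earlier results of these data known, and lengths, consecutive numbers, replicate gaps and CPM classes after the data were seen.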

Additional observations from a re-analysis of the deposited data

Results flagged for a closer look

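Among all 303 loci, 33 changed differently between tissues from D3 to D5 by edgeR's interaction test. For 79 of the 303 the standard error was over 100, so the test could not call them. Given here are the 3 in each direction with the largest estimates among those whose D3 and D5 libraries did not overlap in 1 tissue or more. The log2 difference (seed coat change minus embryo change) was 10.92 at Ps_DOR2genes.26862, 10.78 at Ps_DOR2genes.36507 and 9.54 at Ps_DOR2genes.9932, and -10.67 at Ps_DOR2genes.632, -9.20 at Ps_DOR2genes.48077 and -8.92 at Ps_DOR2genes.8261. Each estimate involves a group at or near 0 counts, so its size depends on how the fit treats zeros. Ps_DOR2genes.26862 and Ps_DOR2genes.8261 kept the call without any 1 library. Ps_DOR2genes.36507, which had 0.370 and 0 CPM at D3 and 0.761 and 0.529 CPM at D5 in the seed coat, lost it in 8 of 14 such fits, Ps_DOR2genes.9932 in 3, Ps_DOR2genes.48077 in 9 and Ps_DOR2genes.632 in 10, including the fit without the single D3 seed coat library that held 4.89 CPM. Ps_DOR2genes.9932 had 0.478 and 0 CPM at D3 and 1.38 and 1.35 CPM at D5 in the seed coat, and 0.418 and 0.323 CPM at D3 and 0 at D5 in the embryo. Ps_DOR2genes.48077 was at 0 and 0.456 CPM at D3 and 0 at D5 in the seed coat, with 0.953 to 2.93 CPM in embryos. Ps_DOR2genes.8261 had 1.10 and 1.26 CPM at D3 and 0.111 and 0.0622 CPM at D5 in the seed coat, and 0.0966 and 0.161 CPM at D3 and 1.78 and 2.07 CPM at D5 in the embryo.

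Outside the libraries used by the rule, replicate 1 of JI64 at D1 labelled 2017 held 131 counts in 11 of the 303 loci. The same library held 86 counts in loci kept by the rule for JI1794, 777 in those kept for Cameor and 468 in those kept for PI358617. No replicate 2 of that group was analysed here, and the cause was not tested.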

How the results depend on the processing

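The tissue count stayed within 1.5 times the count reported under each alternative run, and the counts over stages moved most with limma on FPKM. Limma on log2(FPKM + 1) and on log2(FPKM + 0.1) called 126 and 112 loci over the seed coat stages, 80 and 65 from D1 to D3, 85 and 73 from D3 to D5, 89 and 75 from D1 to D5, 131 and 91 over the embryo stages, 125 and 97 from D3 to D5 in the embryo and 41 and 35 for tissue by stage. Limma on log2(FPKM + 1) also called more of all features at the level. In seed coats these shares were 86.8% over the stages, 62.7% from D1 to D3, 62% from D3 to D5 and 66.4% from D1 to D5. They were 74.2% over the embryo stages, 71.3% from D3 to D5 in the embryo and 74.5% for tissue by stage. DESeq2 called 27 from D1 to D3 and 24 for tissue by stage (16.5% and 32.4%, against 41.8% and 52.7% of all features at the level). The embryo fitted alone gave 116 over its stages and 118 from D3 to D5. The cause was not tested. Leaving out 1 library gave 219 to 235 loci for tissue, 34 to 63 over the seed coat stages, 6 to 27 from D1 to D3, 27 to 44 from D3 to D5, 19 to 42 from D1 to D5, 20 to 59 over the embryo stages, 24 to 64 from D3 to D5 in the embryo, 8 to 23 for tissue by stage and 299 to 310 on the list. The list held 485 loci at 0.25 CPM, 172 at 1 CPM and 500 at 0.5 FPKM. No direction reversed among 165 results of single loci, of which the tests over all stages of a tissue have no direction. Fits without 1 library ended calls 294 times, made calls 13 times and left the side of the threshold unchanged 2003 times. No pairing by replicate number was seen, as deviations of same-numbered libraries correlated by -0.02 to 0.05 over 21 pairs of groups. With 2 libraries per group and weakly read features included, these correlations cannot exclude a pairing. With the replicate number as a block the counts were 226 for tissue, 39 over the seed coat stages, 11, 35 and 29 for its 3 steps in the order above, 36 over the embryo stages, 43 from D3 to D5 and 15 for tissue by stage, and of the single-locus results 15 lost their call, among them those of Ps_DOR2genes.48357 from D1 to D3 and of Ps_DOR2genes.30294 from D1 to D5 in the seed coat and of Ps_DOR2genes.57787 from D3 to D5 in the embryo. In the smallest library, 0 counts allow a level of up to 0.0527 CPM.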
